A study of Mus musculus with 4 samples.

Results

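Group 3 innate lymphoid cells (ILC3s) from the small intestine of IL-17D knockout (KO) and wild-type (WT) mice were compared by RNA sequencing, with 1 library per genotype. The members are all 15242 genes of the table that holds both libraries, of 18191 gene names in either table of the series. Values are FPKM, which scale the reads of a gene by its length and by the total of the library. The 2329 genes with an FPKM of 20 or more in both libraries are described apart from the remaining 12913. The 2 groups were ILC3s labelled steady state, from wild-type mice and from mice labelled Il17d-KO. Cells were sorted as live cells low for CD45, negative for CD3 and high for CD90.2. A 12 h culture without stimulation before the sort of CD93-positive and CD93-negative ILC3s, the other pair of the series, is given with every library. Whether the KO and WT cells were cultured, their strain and age, and the number of mice behind a library are not stated in these sources.

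ILC3s are lymphocytes of mucosal tissues that lack rearranged antigen receptors. They respond to IL-23 and IL-1 with IL-22 and IL-17, which act on the epithelium and its antimicrobial defence. IL-17D is a divergent member of the IL-17 cytokine family, and the surface glycoprotein CD93 has been reported as its receptor on ILC3s. The comparison asks how ILC3 transcripts differ when IL-17D is missing.

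With 1 library per genotype no difference has a replicate check, and no test of genotype exists. Il17d itself was not analysed here, so the genotype label was not checked against its transcript. The totals behind the FPKM scale were 27002581 (KO) and 26087274 (WT), and the reads recovered from the FPKM summed to 20945461 and 21660008. Intervals in parentheses are 95% exact (Clopper-Pearson) intervals of a ratio of FPKM, from these reads, and are left out where reads could not be recovered. They cover counting error only, and not variation between mice or preparations, which 1 library per genotype does not show. PCR copies cannot be told from separate molecules without molecular identifiers, so the intervals may be too narrow even for counting error. Differences are log2((KO FPKM + 1) / (WT FPKM + 1)). In bulk samples such as these, fewer cells of a type and less RNA per cell cannot be told apart. Defining markers of ILC3s were present in both libraries: Il7r stood at 303 (KO) and 230.5 (WT), Il23r 243 and 258, Id2 332 and 387, Thy1, which encodes CD90, 40.001 and 47.0, and Kit 21.4 and 19.0. Ahr, which encodes the aryl hydrocarbon receptor, was the lowest of these markers at 2.57 and 5.01.

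Genes expressed well in both libraries were mostly close. Of the 2329 genes with 20 or more in both, 94 (4.04%) were at least 2-fold apart. Of these, 44 (1.89%) were higher and 50 (2.15%) lower in the KO library. At a limit of 1.5-fold, 167 (7.17%) were higher and 353 (15.2%) lower, and 77.7% of the genes lay within 1.5-fold. The median difference was -0.14, with the central quartiles at -0.44 and 0.17, and 899 genes were above 0 against 1430 below. The genes 2-fold higher included the death ligand gene Fasl, the granzyme gene Gzma, the surface receptor genes Cd7 and Tigit, the transcription factor gene Gata3 and Paneth and goblet cell genes. Those 2-fold lower included the heat shock genes Dnajb1 and Hspa1a, the cyclic AMP response gene Crem, the decoy receptor gene Il1r2, Cd93 and the sterol sensor gene Insig1.

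The balance of higher and lower genes depended on the scale. The FPKM of all genes summed to 510427 in KO and 575053 in WT. Over the same 2329 genes, a common sum for both libraries moved the median by 0.17, and setting their median ratio to 1 moved it by 0.14. The higher genes were 46.8% of the 2-fold differences on the deposited scale, 74.2% with the common sum and 73.1% with the median ratio. At 1.5-fold they were 32.1% on the deposited scale, 64.2% with the common sum and 58.3% with the median ratio. Of the 20 highest named genes described next, all 20 were still 2-fold higher on both scales. Of the 20 lowest, 10 were still 2-fold lower on either scale, among them Dnajb1, Crem and Hspa1a. Il1r2, Cd93, Insig1, Gzmc, Smndc1, Rpl29, Nmrk1, Tram1 and Cox7c were among those under 2-fold on both, at differences of -0.85 to -0.99.

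**Figure D1:**
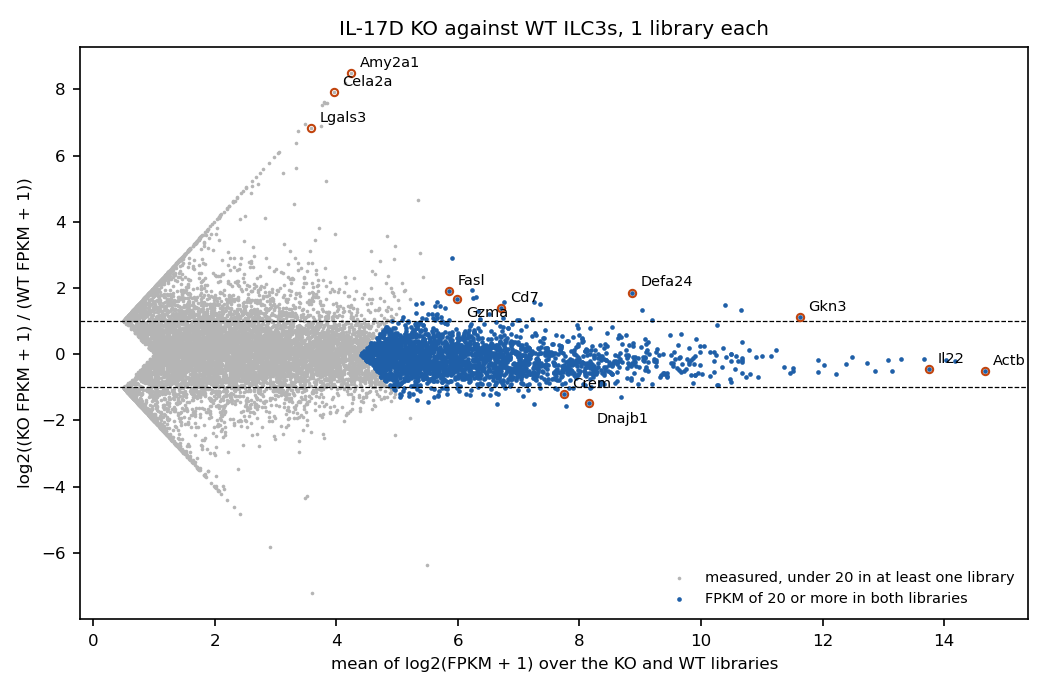
Difference between the KO and WT libraries (vertical axis, log2 of FPKM + 1, KO over WT) against the mean level of the 12376 measured genes (horizontal axis, mean log2(FPKM + 1)), with 1 point per gene and dashed lines at 2-fold. The blue genes with an FPKM of 20 or more in both libraries lie mostly between the lines, while the grey lower genes spread much more widely; Fasl, at 1.90, and Dnajb1, at -1.46, are the highest and lowest named genes among the blue ones.

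The lower genes scattered far more. Of the 12913 remaining genes, 10047 reached an FPKM of 1 in 1 library or both and were counted as measured. Among them 3533 (35.2%) were at least 2-fold apart, 2014 higher and 1519 lower in KO. Their differences had an SD across genes of 1.19, against 0.48 in the well-expressed genes, and 44.3% lay within 1.5-fold. The share of genes 2-fold apart was 43.0% at a mean FPKM of 1 to 2, 32.5% at 2 to 5, 25.2% at 5 to 10, 18.1% at 10 to 20, 11.1% at 20 to 50, 8.50% at 50 to 100 and 4.99% at 100 or more. These groups by mean level, unlike the limit of 20 in both libraries, keep a gene that is high in 1 library and low in the other.

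Counting error was smaller than this scatter. At a mean FPKM of 1 to 2 the median absolute difference was 0.79, while the median counting standard error was 0.16, from a median of 360.5 reads per gene over the pair. At 100 or more the same values were 0.36, 0.019 and 24000 reads. The standard error is taken over genes with recovered reads above 0 in both libraries, the difference over all genes of the group. In the 1 to 2 group at least 250 of 2127 genes were listed at 0 in 1 library. Zeros were counted only for genes with a length in the annotation, and reads were recovered in both libraries for 1428 of the 2127. The CD93-positive and CD93-negative libraries, which had smaller totals, scattered less at low levels. The genes compared are not the same, since 1270 of the 2329 well-expressed genes were listed for the CD93 pair. There, 3.13% of the 2302 genes with 20 or more in both and 4.81% of the 7815 remaining measured genes were 2-fold apart. At a mean FPKM of 1 to 2 their share was 4.05% with a median absolute difference of 0.24. By the same count of zeros, 1 gene was listed at 0 in 1 library. Reads were recovered in both CD93 libraries for 996 of the 1038 genes of this group, so the counts of zeros cover unlike parts of the 2 pairs. At 100 or more the order was the other way, with 7.85% of genes 2-fold apart in the CD93 pair. The source of the extra scatter of low genes in the KO and WT pair was not tested.

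**Figure D2:**
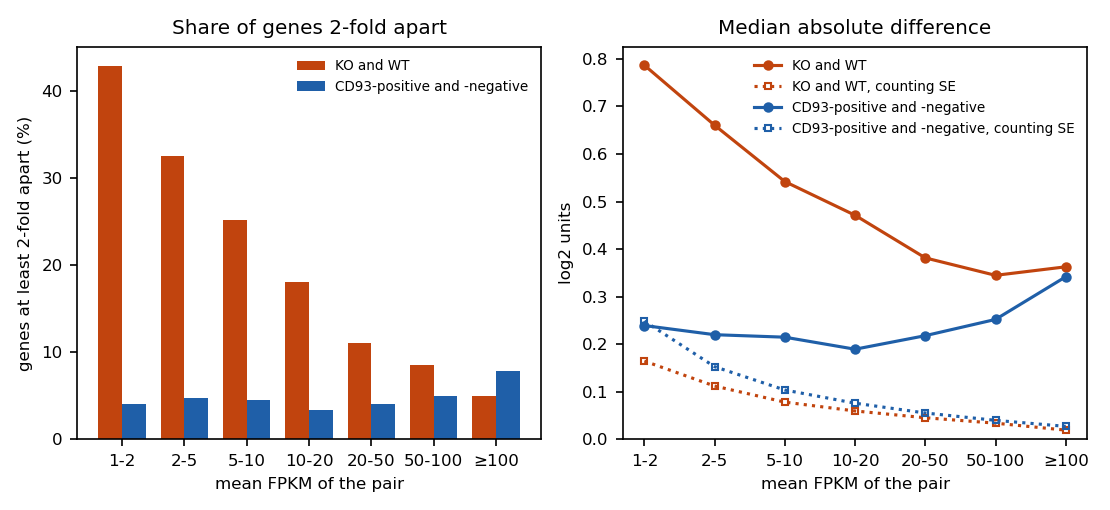
Share of genes at least 2-fold apart (left, %) and median absolute log2 difference with the median counting standard error (right, log2 units; squares on dotted lines), by mean FPKM of the pair, for the KO and WT pair (orange) and the CD93 pair (blue). In the KO and WT pair the share falls from 43.0% at a mean FPKM of 1 to 2 to 4.99% at 100 or more, and the absolute difference stays above the counting error in every level group.

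Some well-expressed names are not ordinary protein-coding genes. Of the 2329 genes, 1307 were protein-coding in GENCODE M21, 786 had names that this annotation does not hold, and 236 were of other kinds. The protein-coding genes had a median of -0.06 and 81.3% of them within 1.5-fold. The names outside the annotation had a median of -0.22, and 534 of 786 were below 0. The well-expressed genes together held 87.5% (KO) and 90.0% (WT) of the summed FPKM. Of the 8 genes at least 3-fold higher, 3 were antigen receptor segments: an immunoglobulin κ variable segment and the T cell receptor β joining segments Trbj1-5 (136 and 41.4) and Trbj2-1 (264 and 87.4). These were named after their values were seen. No gene was 3-fold lower.

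The 20 highest genes included cytotoxic and surface receptor genes of lymphocytes, with Fasl first. Fasl, which encodes the Fas ligand (ENSMUSG00000000817.10; mm10 chromosome 1, 161780689 to 161788495, minus strand), reached 111 in KO against 28.9 in WT, a ratio of 3.83 (3.62 to 4.06). Gzma, which encodes granzyme A, had 113 and 34.6, a ratio of 3.26 (3.03 to 3.52). Tigit, an inhibitory receptor gene, had 65.7 and 22.5, and Cd7, a receptor gene of T, NK and innate lymphoid cells, had 169 and 63.9, a ratio of 2.65 (2.51 to 2.79). Fasl, Gzma and Cd7 were chosen for the size of their difference, so their lower bounds above 2 are no check of it. The bounds cover counting error only.

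Signalling and transcription genes formed a second group. Gata3 (ENSMUSG00000015619.10; chromosome 2, 9857078 to 9890034, minus strand), a transcription factor gene needed for all helper-like ILCs and highest in ILC2s, had 118 in KO and 55.6 in WT, a ratio of 2.12 (2.06 to 2.19). Lat, the adaptor gene of the T cell receptor, had 47.7 and 22.8. Selplg, which encodes the selectin ligand PSGL-1, had 183 and 88.5, a ratio of 2.07 (2.02 to 2.12). Dhrs3, a retinal reductase gene, had 215 and 103, and the interferon-inducible GTPase gene Gbp2 61.2 and 28.3. The splicing factor gene Sf3b2 had 75.8 and 32.4, the ubiquitin ligase adaptor gene Spop 63.1 and 29.8, and the genes Nubp2, Phactr2 and Sde2 lay between 60.5 and 74.4 in KO and between 24.9 and 33.5 in WT.

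Genes of secreted proteins, most of them of mucosal epithelium, formed the third group. The defensin gene Defa24 had 887 in KO and 243 in WT, and Lyz1, the lysozyme gene of Paneth cells, 141 and 42.2. Both have near-identical relatives, so reads may be split among copies. The lectin gene Itln1 had 273 and 95.3, a ratio of 2.87 (2.75 to 2.99), and the ribonuclease gene Rnase4, which many cell types express, 86.0 and 28.1. Gkn3, a gastrokine gene, was the highest of all 20 at 4653 and 2149, a ratio of 2.16 (2.14 to 2.19). Tff2, which encodes a trefoil peptide, had 840 and 410. In the WT library these genes ranged from 28.1 to 2149. The part of other cells or of their free RNA in these values was not tested.

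**Figure D3:**
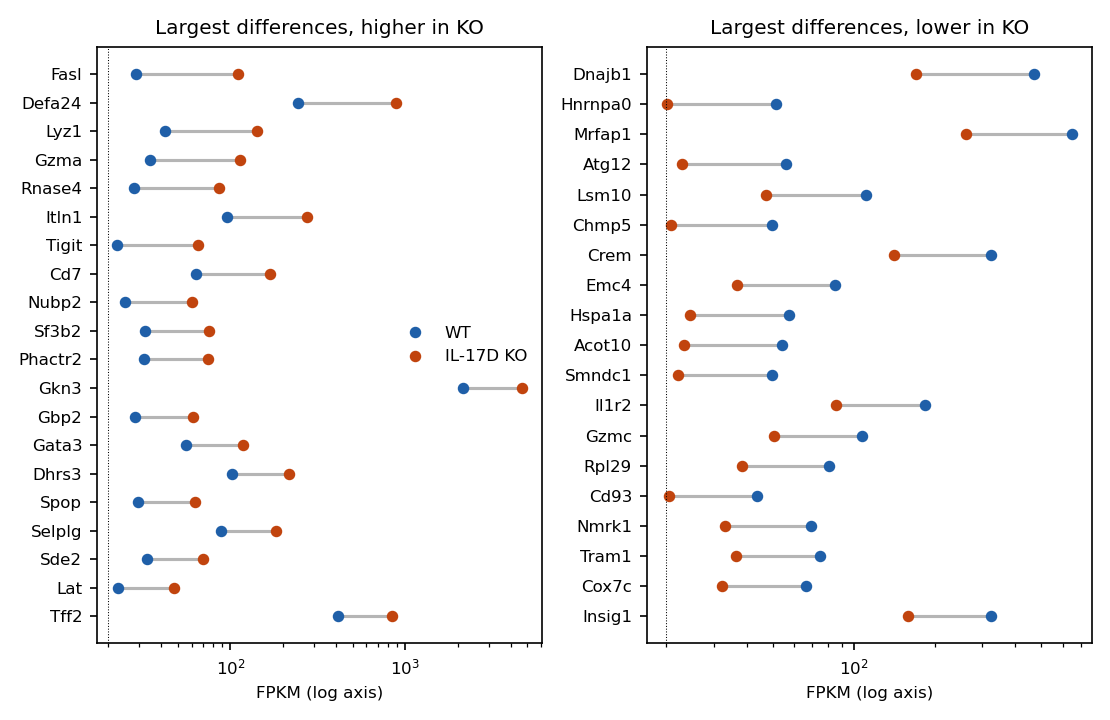
FPKM (log axis) of the 20 named genes with the highest (left) and 19 of the 20 with the lowest (right) log2 differences among protein-coding genes with an FPKM of 20 or more in both libraries, with 1 orange point for the KO library and 1 blue point for the WT library. Fasl stands at 111 and 28.9 at the top left and Dnajb1 at 170 and 470 at the top right, and the dotted line marks the limit of 20, near which Hnrnpa0, Chmp5 and Cd93 lie in KO.

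The 20 lowest genes included stress and signal response genes, with Dnajb1 first, beside genes of general cell functions. Dnajb1 (ENSMUSG00000005483.10; chromosome 8, 83608193 to 83612653, plus strand), which encodes an HSP40 co-chaperone, had 170 in KO and 470 in WT and was 2.76-fold lower (2.71 to 2.81). Crem, which encodes a cyclic AMP response modulator, had 141 and 323 and was 2.30-fold lower (2.26 to 2.34). Insig1, whose protein holds back sterol synthesis, had 159 and 323 and was 2.03-fold lower (1.99 to 2.07).

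Surface and effector genes among the 20 lowest were Il1r2, Cd93 and Gzmc. Il1r2 (ENSMUSG00000026073.13; chromosome 1, 40074079 to 40125231, plus strand), the decoy receptor gene for IL-1, had 86.0 in KO and 184 in WT and was 2.14-fold lower (2.06 to 2.21). Cd93 had 20.5 and 43.5, and its KO value lay just above the limit of 20. Gzmc, which encodes granzyme C, had 50.4 and 107, opposite in direction to Gzma. Others of the 20 were Hnrnpa0 in RNA binding (20.1 and 51.1), Atg12 in autophagy (22.8 and 55.7), Chmp5 in membrane scission (20.8 and 49.5), Tram1 in translocation into the endoplasmic reticulum (36.3 and 74.7) and Mrfap1, the most abundant of the 20 lowest in WT (262 and 649).

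Heat shock proteins and chaperones fold proteins, and many are induced by heat and other stress. Of 26 members with 20 or more in both libraries, 8 were at least 1.5-fold lower and 1 higher, against 15.2% and 7.17% of all such genes. The median was -0.25, beside -0.14 for all, and it stayed below 0 with the common sum (-0.08) and the median ratio (-0.11). The excess of lower members did not: with either scaling 2 of the 26 (7.69%) were 1.5-fold lower, Dnajb1 and Hspa1a, against 6.61% of all such genes with the common sum and 7.86% with the median ratio. Besides Dnajb1, Hspa1a, an inducible HSP70 gene, had 24.5 in KO and 57.2 in WT and was 2.33-fold lower (2.21 to 2.46). Its near-identical neighbour Hspa1b had 8.52 and 32.7, and reads shared by the copies make the value of each uncertain. The constitutive HSP70 gene Hspa8 had 218 and 338, the HSP90 gene Hsp90aa1 110 and 176 and the mitochondrial HSP60 gene Hspd1 20.2 and 32.8. The co-chaperone gene Ptges3 had 199 and 311 and the co-chaperone gene St13 119 and 182. Canx, a lectin chaperone gene of the endoplasmic reticulum, had 521 and 810. The HSP90 activator gene Ahsa1 was the 1 higher member, at 39.99 and 22.6, and the endoplasmic reticulum HSP70 gene Hspa5 had 1153 and 1106.

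Immediate early and AP-1 genes, which cells induce within minutes of a stimulus or of tissue dissociation, went both ways. Of 23 members with 20 or more in both, 6 were at least 1.5-fold higher and 1 lower, against 7.17% and 15.2% of all such genes, and 10 were above 0. The median of -0.09 turned to 0.08 with the common sum and 0.05 with the median ratio, and with either scaling 9 were 1.5-fold higher and 0 lower. Dusp1, which encodes a phosphatase of MAP kinases, had 1671 in KO and 910 in WT, and the AP-1 gene Junb 186 and 102, a ratio of 1.83 (1.77 to 1.89). Ier2 had 380 and 218, Nr4a1 223 and 133, Btg2 436 and 278, and Jun 191 and 123. Fos, at 490 and 341, lay just under the 1.5-fold limit. The orphan receptor gene Nr4a3 had 55.4 and 85.1, the AP-1 gene Fosb 36.7 and 53.2 and the antiproliferative gene Btg1 2451 and 3507. On the deposited scale the related genes Nr4a1 and Nr4a3 passed 1.5-fold in opposite directions.

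Promoters of 3 genes of each of these lists are shown, chosen from members whose window holds the motif marked. Windows are from RefSeq (build GRCm38.p6) and run from 250 bases before to 50 bases after the gene start, written 5′ to 3′ on the gene's strand. Capitals mark GAANNTTC, the core of the element that heat shock factors bind, in Hspa1a (chr17:34972107-34972406, minus strand, match beginning at position -104 from the gene start), Hspd1 (chr1:55087883-55088182, minus, -139) and Dnaja1 (chr4:40722218-40722517, plus, -124).
Hspa1a: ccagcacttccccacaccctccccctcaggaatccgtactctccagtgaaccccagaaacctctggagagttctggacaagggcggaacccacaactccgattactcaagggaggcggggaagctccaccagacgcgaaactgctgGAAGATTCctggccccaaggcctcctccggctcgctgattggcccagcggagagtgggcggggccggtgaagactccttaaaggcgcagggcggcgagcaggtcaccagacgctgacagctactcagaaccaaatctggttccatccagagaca
Hspd1: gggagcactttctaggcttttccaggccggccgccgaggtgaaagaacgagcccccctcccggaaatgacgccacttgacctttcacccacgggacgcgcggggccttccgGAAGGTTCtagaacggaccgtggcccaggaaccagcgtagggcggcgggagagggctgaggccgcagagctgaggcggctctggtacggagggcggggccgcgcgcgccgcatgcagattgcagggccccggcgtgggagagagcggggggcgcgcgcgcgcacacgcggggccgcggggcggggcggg
Dnaja1: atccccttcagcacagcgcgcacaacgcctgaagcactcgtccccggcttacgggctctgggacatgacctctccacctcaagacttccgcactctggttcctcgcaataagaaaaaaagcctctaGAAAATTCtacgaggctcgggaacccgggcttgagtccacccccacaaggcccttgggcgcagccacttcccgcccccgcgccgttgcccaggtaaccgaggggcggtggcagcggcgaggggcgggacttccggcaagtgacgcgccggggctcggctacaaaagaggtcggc
Capitals mark TGACGTCA, the cyclic AMP response element that CREB, CREM and ATF proteins bind, in Dusp1 (chr17:26508423-26508722, minus, -143), Btg2 (chr1:134079106-134079405, minus, -166) and Ppp1r15a (chr7:45526219-45526518, minus, -12).
Dusp1: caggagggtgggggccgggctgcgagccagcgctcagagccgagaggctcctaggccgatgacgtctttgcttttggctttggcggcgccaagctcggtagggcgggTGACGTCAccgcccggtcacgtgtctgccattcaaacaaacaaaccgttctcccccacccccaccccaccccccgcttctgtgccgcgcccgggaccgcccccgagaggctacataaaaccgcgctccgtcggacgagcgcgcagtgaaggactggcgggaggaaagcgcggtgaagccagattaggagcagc
Btg2: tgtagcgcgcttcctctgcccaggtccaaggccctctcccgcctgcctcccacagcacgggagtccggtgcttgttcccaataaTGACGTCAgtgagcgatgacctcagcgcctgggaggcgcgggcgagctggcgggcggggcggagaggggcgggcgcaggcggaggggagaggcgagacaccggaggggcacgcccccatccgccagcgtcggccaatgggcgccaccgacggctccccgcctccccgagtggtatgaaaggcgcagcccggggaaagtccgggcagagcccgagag
Ppp1r15a: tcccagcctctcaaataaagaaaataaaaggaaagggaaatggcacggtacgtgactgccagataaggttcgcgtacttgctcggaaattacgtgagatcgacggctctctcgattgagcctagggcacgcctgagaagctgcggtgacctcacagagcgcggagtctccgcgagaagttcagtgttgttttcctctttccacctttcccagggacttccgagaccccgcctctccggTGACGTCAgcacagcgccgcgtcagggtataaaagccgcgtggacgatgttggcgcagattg

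Both motifs read the same on both strands, and neither contains the other. GAANNTTC stood in 2582 of 32851 promoter windows of the genome (7.86%). Counted by gene, where any window of a gene may match, it stood in 2442 of 27025 genes with a window (9.04%). Of the 1028 well-expressed genes with a window, 77 (7.49%) held it. In the heat shock list it stood in 5 of 21 genes with a window: Hspa1a, Hspd1, Dnaja1, Dnajb6 and Cct2. Of these, Hspa1a and Hspd1 were among those at least 1.5-fold lower on the deposited scale, of which 5 had a window, and Dnaja1 had 55.4 in KO and 75.6 in WT. TGACGTCA stood in 588 of all windows (1.79%). By gene it stood in 549 of the 27025 (2.03%), in 54 of the 1028 (5.25%) and in 4 of 20 genes of the immediate early list: Dusp1, Btg2, Ppp1r15a and Maff. Ppp1r15a, a stress-induced phosphatase subunit gene, had 253 and 172, and Maff had 43.9 and 55.0, so genes with the element lay on both sides. A match is a description of letters, not of a bound site.

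The transcription factors of ILC3 identity were close in level. Of 11 members with 20 or more in both, Gata3 was at least 1.5-fold higher and 0 were lower, with a median of 0.01. Of all such genes 7.17% were higher and 15.2% lower. Rora had 149 in KO and 129.5 in WT, Tcf7 113 and 118.5, Runx3 41.3 and 40.9, Tox 39.8 and 36.65, and Nfil3 94.8 and 113. Surface receptors of ILC3s were likewise close, with Il1r2 and Cd93 lower and 0 of the 14 higher at 1.5-fold. Il2rg, the common γ chain gene, had 1439 and 1442, Icos 108 and 145, Cd69 381 and 321, and Ptprc, which encodes CD45, 48.9 and 33.25. The receptor median of -0.04 turned above 0 with the common sum (0.13) and the median ratio (0.10).

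Effector cytokine genes lay on both sides of 0. Of 9 members with 20 or more in both, Il17f and Tnfsf11 (22.2%) were at least 1.5-fold lower and 0 were higher. Of all such genes 15.2% were lower and 7.17% higher. The list's median was 0.13, and 0.30 with the common sum and 0.27 with the median ratio. With either scaling 1 member was 1.5-fold lower and 2 were higher. Il17f had 175 in KO against 299.8 in WT and was 1.71-fold lower (1.67 to 1.76). Il22 had 11771 and 16102, and its near copy Iltifb 1296 and 1758, 1.36-fold lower (1.34 to 1.37); reads of the copies may be shared. The interferon-γ gene Ifng had 40.7 and 28.8, the growth factor gene Hbegf 100.1 and 86.1, and the lymphotoxin gene Ltb 624 and 599. Below the limit of 20, Tnfsf14, which encodes LIGHT, had 24.8 and 4.76, and Areg, which encodes amphiregulin, 11.9 and 33.7.

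Genes of NCR-positive ILC3s, ILC1s and NK cells had 18 members with 20 or more in both, of which 3 (16.7%) were at least 1.5-fold higher and 1 (5.56%) lower, beside 7.17% and 15.2% of all such genes. Their median was 0.08, and 0.25 with the common sum and 0.22 with the median ratio. With either scaling 7 of the 18 were 1.5-fold higher and 1 lower. Of all 2329 such genes, 276 were higher and 154 lower with the common sum, and 256 and 183 with the median ratio. On the deposited scale the higher ones were Fasl, Gzma and the chemokine gene Ccl4 (190.5 in KO and 126 in WT), and Gzmc was the lower one. Ncr1, which encodes the activating receptor NKp46, had 82.1 and 80.0, Gzmb 36.65 and 36.2, Cxcr6 1035 and 986, and Nkg7 881 and 587. Of the list's defining NK cell markers, Klrb1c had 29.5 and 10.03, Prf1 3.12 and 1.498, and Eomes was not analysed here.

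ILC2 genes had 1 member with 20 or more in both, Gata3. Of 13 measured members, 7 were at least 2-fold higher and 2 lower, beside 16.6% and 12.7% of all 12376 measured genes. Il4 had 27.2 in KO and 4.999 in WT, the sulfotransferase gene Hs3st1 15.4 and 3.73, the NOTCH target gene Hey1 22.2 and 5.295, the chemokine receptor gene Ccr8 32.5 and 8.16, and the IL-25 receptor gene Il17rb 11.5 and 2.15. The defining ILC2 genes Il1rl1 (0.161 and 0.0222) and Il5 (1.83 and 1.95) were low in both libraries. The 2 members at least 2-fold lower were Areg, at 11.9 in KO and 33.7 in WT, and Pparg, listed at 0 in KO with 2.06 in WT. Klrg1, at a difference of -0.46, was lower by less than 2-fold. Most of these values lie at levels where a sizeable share of all genes were 2-fold apart.

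**Figure D4:**
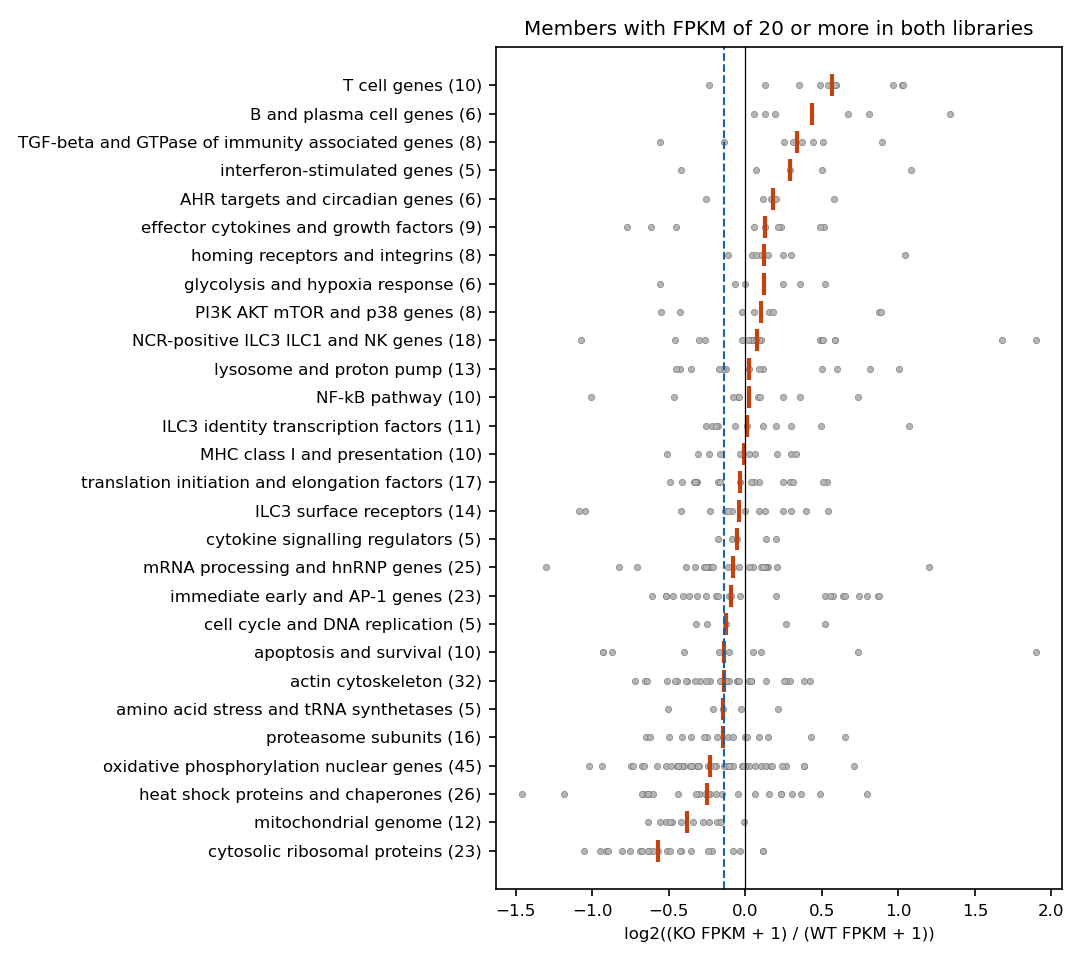
Log2 difference (horizontal axis) of each member with an FPKM of 20 or more in both libraries (grey points) for the 28 lists with at least 5 such members (number in brackets), with the list's median (orange bar) and the median of all 2329 such genes (dashed line, -0.14). T cell genes have the highest median, 0.56, and cytosolic ribosomal proteins the lowest, -0.57; with the median ratio set to 1 every median moves up by 0.14, and 7 lists change sign, among them the immediate early genes.

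Several lists of markers of other cells were higher in the KO library, and others were not. Of 10 T cell genes with 20 or more in both, 5 were 1.5-fold or more above WT and 0 below, beside 7.17% and 15.2% of all such genes, and their median was 0.56. Trac, the T cell receptor α constant gene, had 177 in KO and 86.7 in WT, the kinase genes Lck 137 and 69.9 and Zap70 83.1 and 55.0, and Cd3g 37.1 and 24.3, while Tcrg-C1 had 824 and 969.9. Over all 21 T cell genes, which were all measured, 10 were 2-fold higher, such as Cd28 (14.1 and 2.44) and Trdc (25.5 and 8.72), and 0 lower, beside 16.6% and 12.7% of all measured genes, and the list summed to an FPKM of 2487 and 2078. None of its genes was listed at 0 in either library, although CD3-positive cells were left out of the sort. ILCs can transcribe several of these genes.

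B and plasma cell genes had 6 members with 20 or more in both, of which 3 were at least 1.5-fold higher and 0 lower, against the same 7.17% and 15.2%. They were Iglc1 (2579 in KO and 1019 in WT), the joining chain gene Jchain (148 and 84.5) and the secretory regulator gene Xbp1 (68.9 and 42.9). The other well-expressed members, Igkc (1846 and 1689), Iglc2 (77.2 and 67.3) and Cd79b (31.5 and 30.4), were under 1.5-fold. The list summed to 4828 and 2954, and Iglc1 held most of this difference. In the epithelial list, 10 of 15 measured members were 2-fold higher and 1 was 2-fold lower, against 16.6% and 12.7% of all measured genes. Its FPKM summed to 1242 and 384, of which Defa24 held 887 and 243. The epithelial markers Epcam (2.25 and 2.35) and Krt8 (5.60 and 0.392) were low, and Vil1 and Muc2 were not analysed here. Of 26 measured genes of the exocrine pancreas, all 26 were at least 2-fold above WT, and 0 reached 20 in both libraries. They summed to 2119 and 16.0, and 18 of the tabulated 27 were listed at 0 in WT. The macrophage, monocyte and dendritic cell list summed to 117.9 and 42.3, with 6 of 8 measured genes 2-fold higher and 2 lower. The fibroblast and smooth muscle list summed to 16.2 and 21.1, with 0 of 5 measured genes 2-fold higher and 3 lower. No measured gene was 2-fold higher and a few were 2-fold lower in the endothelial list (1 of 3), the erythroid list (2 of 4) and the list of neutrophils and mast cells (1 of 1). The part of these cells in the differences of other genes was not tested.

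**Figure D5:**
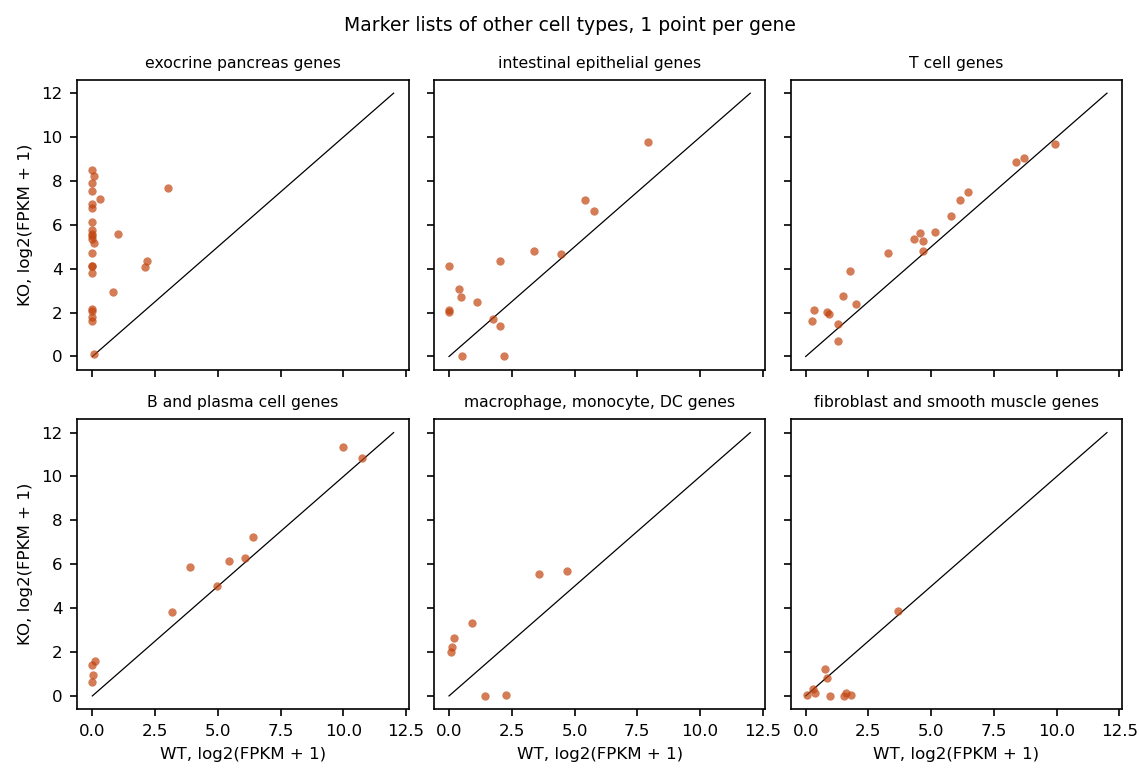
Log2(FPKM + 1) in the KO library (vertical) against the WT library (horizontal) for 6 lists of markers of other cell types, with 1 point per gene and the line of equal values. Exocrine pancreas genes stand along the left edge, with 18 of 27 at 0 in WT, while most T cell and B and plasma cell genes lie above the line, 10 of 21 and 4 of 10 measured ones by 2-fold or more.

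Ribosomal protein and mitochondrial genome lists had medians below 0 on each scale used. Of 23 cytosolic ribosomal protein genes with 20 or more in both, 11 were at least 1.5-fold lower and 0 higher, and the median was -0.57 (-0.40 with the common sum and -0.43 with the median ratio). With either scaling 6 (26.1%) were 1.5-fold lower and 0 higher. Of all such genes 15.2% were lower on the deposited scale, 6.61% with the common sum and 7.86% with the median ratio. Rpl29 had 38.25 in KO and 80.5 in WT, Rpl10 64.7 and 122 and Rps15 60.7 and 114. Many ribosomal protein genes have processed pseudogenes, so reads may be split among copies and each value is uncertain. All 12 genes of the mitochondrial genome with 20 or more in both were below 0, with a median of -0.38 (-0.21 with the common sum and -0.24 with the median ratio). The largest difference among them was in mt-Co3 (763 and 1187) and the smallest in mt-Nd6 (144 and 145). Of 45 nuclear genes of oxidative phosphorylation, 6 (13.3%) were at least 1.5-fold lower and 1 higher, near or below the 15.2% and 7.17% of all such genes, with a median of -0.23 (-0.068 with the common sum and -0.097 with the median ratio). The lower ones were the complex III genes Uqcrh (20.4 and 39.9), Uqcrb and Uqcr10, the complex IV genes Cox7c (32.2 and 66.2) and Cox7a2, and the complex I gene Ndufb6, while the complex I gene Ndufs7 was higher (52.9 and 31.9).

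Survival and NF-κB genes differed singly. Of 10 apoptosis and survival genes with 20 or more in both, 3 were at least 1.5-fold lower and 2 higher, beside 15.2% and 7.17% of all such genes. The antiapoptotic gene Mcl1 had 29.2 in KO and 56.4 in WT, and the near-identical copies Bcl2a1d 101 and 194 and Bcl2a1a 32.2 and 59.8, whose reads may be split. Fasl and the caspase inhibitor gene Birc3 (55.8 and 33.1) were higher. In the NF-κB list Nfkbie, an inhibitor gene, had 43.5 and 88.5, while the inhibitor gene Nfkbia had 2024 and 2097 and Tnfaip3 318 and 327.

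Some of the other lists held no difference of 1.5-fold, and some held a share above that of all genes. Of all genes with 20 or more in both, 7.17% were higher and 15.2% lower. Among 32 genes of the actin cytoskeleton 3 (9.4%) were lower, Arpc3 (40.05 in KO and 66.6 in WT), Cotl1 (21.6 and 34.6) and Twf1 (202 and 315), and 0 were higher. With either scaling 0 of the 32 were lower, against 6.61% of all such genes with the common sum and 7.86% with the median ratio. Among 17 translation factors, 10 MHC class I genes and 6 glycolysis genes 0 were higher or lower. Among 8 genes of TGF-β signalling and the GIMAP GTPases Gimap3 was higher (339 and 182). Among 13 lysosomal genes 3 (23.1%) were higher, Ctsb (50.5 and 24.7), Ctsz (45.4 and 29.6) and Atp6v0b (36.8 and 20.5), and 0 were lower. Among 5 interferon-stimulated genes with 20 or more in both, Gbp2 was higher, while Ifit1 had 41.1 and 55.3. Over all 30 measured genes of that list, 4 were 2-fold higher and 9 lower, beside 16.6% and 12.7% of all measured genes, with Isg15 at 12.7 and 33.6, Rtp4 at 8.53 and 23.15 and Ifit3 at 0.488 and 7.535.

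Of the 10 most abundant genes, Gkn3 was 2-fold higher, as given above, and the others were under 1.5-fold. Actb, which encodes β-actin, had 21853 in KO and 31207 in WT, a log2 difference of -0.51. The ubiquitin gene Ubb had 15863 and 17843, the kinase gene Pim1 5571 and 5933, the signalling inhibitor gene Spry2 3231 and 4701, the MHC class I light chain gene B2m 3659 and 4099, the syndecan gene Sdc4 2517 and 2308 and the thymosin gene Tmsb4x 2238 and 2321. With the common sum the differences of Ubb, Pim1, B2m and Tmsb4x lay above 0.

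Near the limit the choice of class was a matter of small amounts. Just inside were Hnrnpa0 (20.1 in KO), Nhp2 (20.1 in KO and 23.2 in WT) and Slc25a17 (20.7 and 20.1). Just outside were Prkch (19.99 in KO and 34.0 in WT), Pigx (31.6 and 19.97) and Atp6ap1 (21.5 and 19.9). In all, 414 genes had 20 or more in KO alone and 353 in WT alone. In this class of 767, 207 (27.0%) were higher by 2-fold or more, 94 (12.3%) were lower by as much, and 466 were under 2-fold. A gene in this class had to differ to some extent, so these shares describe the choice. Of the 10 highest protein-coding ones, 9 encode exocrine pancreas enzymes, and the other, Lgals3, which encodes galectin-3, had 127 in KO and 0.124 in WT. The lowest was Plekhf2, which encodes an endosomal protein, at 3.20 and 25.1, 7.82-fold lower (6.87 to 8.92), followed by the ribosomal protein gene Rps21 (12.5 and 71.8) and Gchfr, a regulator of tetrahydrobiopterin synthesis (4.995 and 30.8).

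The CD93 pair, which shares no library with the KO and WT pair, gives the same genes in a second sort. Of the 20 highest genes 17 were measured there, and 10 of these had a higher level in CD93-negative than in CD93-positive ILC3s. Of the 20 lowest, 19 were measured and 9 were higher in CD93-negative cells. Of all the well-expressed genes measured there, 483 of 1267 (38.1%) were. Cd93 itself had 155 in the CD93-positive and 79.9 in the CD93-negative library, so its transcript was present in both. Fasl stood at 3.26 in the CD93-positive and 15.7 in the CD93-negative library, and Gzma at 27.0 and 82.2. Both were higher in the CD93-negative library, as they were in the KO library. Il1r2 (35.8 and 15.2), Insig1 (42.7 and 19.55) and Mrfap1 (191 and 84.3) were lower in CD93-negative cells, as in the KO library. Dhrs3 (44.9 and 17.2) and Hspa1a (16.3 and 41.0) went the opposite way. Gata3 (12.5 and 14.1) and Dnajb1 (25.7 and 26.7) were close. Whether the differences of these genes belong to 1 process was not tested.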

How the data were processed

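The authors deposited FPKM per gene, in 1 table per library and 1 joint table per pair. The joint and single tables held equal values. Per the submitters' processing notes, Bowtie2, featureCounts of Subread, edgeR and DESeq2 were named, with the build mm10. How and in which versions these were run, and which annotation was counted, is not stated in the sources at hand.

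The members, the gene lists (40 lists, 1052 genes) and the alternatives were chosen with earlier results of these data known. Differences are log2 with a pseudocount of 1, which understates those of low genes. No p-value was computed, since each group had 1 library. A gene with an FPKM of 1 or more in at least 1 library counted as measured. Named genes are the 20 highest and 20 lowest protein-coding ones with 20 or more in both libraries, the 10 highest and 10 lowest with 20 or more in exactly 1, the 10 most abundant, list members, Cd93, Il17d, and 3 genes on each side of the limit. Predicted genes, clone names, pseudogenes, small RNAs, mitochondrial genes (except as a list), receptor segments (except as list members or where stated), histones and 18 date-like names were left out of the first 3 of these. A few genes chosen this way are not reported here.

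Reads were recovered as FPKM times union exon length in GENCODE M21 divided by 1 step per library. They came out whole, within 0.02 reads, for 92.1% of KO and 91.9% of WT values with a length above 0. They were used for intervals only. A count test across 2 single libraries has no residual degrees of freedom and was not run. The recovery and the counts were tested on simulated data. Promoter windows came from RefSeq (GRCm38.p6), matched by symbol for 1028 of the 2329 well-expressed genes. Python 3.11.15, numpy 2.4.6, pandas 2.3.3, scipy 1.17.1 and matplotlib 3.10.9 were used. Alternatives were other pseudocounts, limits, scalings and a set of protein-coding genes. The common sum in the results scaled both libraries to the geometric mean of their sums and kept the genes chosen on the deposited values.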

Additional observations from a re-analysis of the deposited data

How the results depend on the processing

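The common sum was run as planned, on a scale of parts of the total that let 3467 genes pass the limit, and again over the same 2329 genes, a setting chosen after seeing the data that the results above use. The median changed sign in 10 and 11 lists with these and in 7 with the median ratio. A pseudocount of 0.1 or 5 left each count of well-expressed genes within 1.5 times. With a pseudocount of 5, 16 of the 20 highest and 13 of the 20 lowest named genes stayed 2-fold apart. Counts are given as 2-fold higher, 2-fold lower, 1.5-fold higher and 1.5-fold lower genes, against 44, 50, 167 and 353. They were 113, 100, 361 and 574 with a limit of 10 in both libraries and 17, 22, 57 and 191 with a limit of 50. They were 68, 25, 256 and 183 with a median ratio of 1, and 22, 22, 101 and 144 over protein-coding names. With a limit on the geometric mean, 96 and 83 genes were 2-fold higher and lower and 259 were 1.5-fold higher. With the planned common sum, 163 and 60 of the 3467 were 2-fold higher and lower and 509 and 288 were 1.5-fold higher and lower. Over the same genes these were 72, 25, 276 and 154. With a 3-fold limit 8 were higher and 0 lower. The fewer or more genes under another limit are part of its construction. The median of the well-expressed genes was 0.034 with the planned common sum, 0.030 over the same genes and 0 with the median ratio. Among the remaining genes, 2014 higher and 1519 lower became 462 and 288 with a pseudocount of 5, which shrinks low genes most, and 1243 and 939 over protein-coding names; their median of 0.08 became 0.26 with the planned common sum, 0.23 with the added one and 0.21 with the median ratio. The lists with a negative median fell from 15 to 6 with the planned common sum, 4 with the added one and 8 with the median ratio. No paired analysis was possible because each group had 1 library.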
